A study of Mus musculus with 11 samples.

Results

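The genes described here are 8 genes that mark mouse microglia, the macs of the brain: P2ry12, Gpr34, Tmem119, Selplg, Fcrls, Sparc, Olfml3 and Sall1. They were taken by name, as known microglia genes, from the 27998 genes counted in each of 11 single-cell libraries, and all 8 were found in every count table. Macs sorted from 5 mouse tissues, the brain, the colon, the liver, the lung and the spleen, were sequenced cell by cell on the 10x Genomics droplet platform, which counts unique molecular identifiers (UMIs) at the 3′ end of transcripts. In each tissue a library of Zeb2fl/fl mice without CRE (WT) was set against a library of Zeb2KO mice, and an additional WT liver library came from Nr1h3fl/fl mice. Brain, colon and spleen Zeb2KO mice were Fcgr1-crexZeb2fl/fl. The labels also give Fcgr1-crexZeb2fl/fl for the lung and the liver, but the study's methods state that Itgax-cre was used in the lung and Clec4f-cre in the liver, and all are called Zeb2KO here. By the study's account, macs that kept a working Zeb2 allele were present in the Zeb2KO mice of every tissue but the brain, so the Zeb2KO libraries of colon, liver, lung and spleen are mixtures, which were not separated here. Both floxed alleles are shared by the WT and Zeb2KO mice of a pair, the controls were littermates, and the mice were 6 to 8 weeks old and on a C57Bl/6 background. Microglia were sorted as CD45int F4/80+ CD64+ cells, colonic macs (CMs) and splenic macs (SMs) as CD64+ F4/80+ cells without Ly6C, Ly6G and SiglecF, Kupffer cells (KCs) as Clec4F+ CD64+ F4/80+ cells and alveolar macs (AMs) as CD11c+ SiglecF+ F4/80+ CD64+ cells.

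Microglia settle in the brain early in development and renew themselves there, and signals of the brain, with TGF-beta among them, keep on a set of genes that other macs use little. Receptors of this set let the cells sense nucleotides and lipids released by damaged cells, and its secreted proteins act on the matrix around them. ZEB2 is a zinc finger transcription factor, known mostly as a repressor, that binds E-box sequences with the core CACCT.

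Each tissue and genotype was 1 library, so a difference within a tissue has no replicate check and no p-value is given for it. Levels are UMIs of a gene per 1000000 UMIs summed over the macs kept in a library (CPM), and brackets after a level hold its exact 95% Poisson interval, which covers counting error only. The kept cells numbered 2830 in WT and 3243 in Zeb2KO microglia, with 4202 and 4955 UMIs per cell at the median, and 2958 to 6972 in the other libraries. The summed UMIs ran from 7978747 (WT SMs) to 43317866 (WT CMs), and KCs and AMs were sequenced on a NextSeq500 and the others on a HiSeq, so instrument and tissue cannot be told apart where microglia, CMs or SMs are compared with KCs or AMs. The Zeb2 counts did not show the deletion itself, since 3′ counts do not report whether the floxed part is gone. Zeb2 was at 475 CPM in WT and 1747 CPM in Zeb2KO microglia. The study recognised Zeb2-/- microglia by higher Zeb2, Siglecf and Cd101. Siglecf was at 30.6 CPM in WT and 408 CPM in Zeb2KO microglia, and Cd101 at 6.49 and 32.8 CPM. Red blood cell transcripts were at 609 CPM in WT and 39.9 CPM in Zeb2KO microglia in all (0 of 6 listed genes higher, 4 lower past 2-fold), immediate early genes of tissue dissociation at 22772 and 17176 CPM, monocyte markers at 7.62 and 45.4 CPM and border-associated macrophage markers at 13.4 and 12.9 CPM, and the part of these in the results below was not tested. Most of the monocyte marker sum in Zeb2KO microglia was Plac8, at 2.92 CPM in WT and 36.0 CPM in Zeb2KO. S100a4 was also higher in Zeb2KO, whereas Ccr2 was lower, at 3.41 CPM in WT and 2.13 CPM in Zeb2KO. Any pair of libraries shared between 14 and 76 cell barcodes.

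The sequences before the starts of 4 of the genes are shown because ZEB2 binds an E-box: Fcrls and Sparc were the pair of genes furthest apart between WT and Zeb2KO microglia, and P2ry12 and Olfml3 differed less. They are the 250 bases before the RefSeq start on GRCm38.p6, read 5′ to 3′ on the strand of the gene, with the ZEB-type core CACCT and the PU.1-type motif GAGGAA in capitals on either strand. RefSeq entries were at hand for 5 of the 8 genes, with no entry for Tmem119, Gpr34 and Selplg, and Sall1 had 3 starts.
Fcrls, chr3:87263525-87263774, minus strand: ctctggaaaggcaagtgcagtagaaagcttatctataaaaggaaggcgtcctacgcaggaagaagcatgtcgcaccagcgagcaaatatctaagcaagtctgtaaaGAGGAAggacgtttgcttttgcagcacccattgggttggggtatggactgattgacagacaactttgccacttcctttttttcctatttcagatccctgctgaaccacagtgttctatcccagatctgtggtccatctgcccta
Sparc, chr11:55420081-55420330, minus strand: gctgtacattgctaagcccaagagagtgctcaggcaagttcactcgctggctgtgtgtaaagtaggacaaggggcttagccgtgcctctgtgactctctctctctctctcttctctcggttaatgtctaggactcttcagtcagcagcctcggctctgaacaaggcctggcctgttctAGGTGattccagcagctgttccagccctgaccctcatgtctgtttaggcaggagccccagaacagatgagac
P2ry12, chr3:59262986-59263235, minus strand: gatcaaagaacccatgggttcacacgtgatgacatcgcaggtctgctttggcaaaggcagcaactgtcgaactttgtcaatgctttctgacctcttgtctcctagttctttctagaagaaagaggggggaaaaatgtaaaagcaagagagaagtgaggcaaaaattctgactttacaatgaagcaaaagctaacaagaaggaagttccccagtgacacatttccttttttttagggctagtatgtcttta
Olfml3, chr3:103738002-103738251, minus strand: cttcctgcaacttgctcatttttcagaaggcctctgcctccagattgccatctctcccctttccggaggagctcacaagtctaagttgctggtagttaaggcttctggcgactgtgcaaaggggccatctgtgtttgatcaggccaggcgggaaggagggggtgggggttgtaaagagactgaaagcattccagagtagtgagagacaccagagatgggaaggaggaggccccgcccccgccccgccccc
Over the longer window that runs from 250 bases before to 50 bases after the start, the Fcrls sequence held GAGGAA at position -144 and CACCT at position 14, there as part of CACCTG, with the first transcribed base as position 1. The Sparc sequence held CACCT on the opposite strand at positions -72 and 1, at position 1 also as part of CACCTG. The P2ry12 and Olfml3 windows and the 3 Sall1 windows held neither motif. Of 32817 mouse promoter windows of this length, 51.9% held CACCT, 20.2% CACCTG and 28.3% GAGGAA on either strand, so these matches are common and are a description of the letters only.

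All 8 genes were highest in WT microglia among the WT libraries. A gene was called specific to WT microglia when it reached 20 CPM there and was at least 4-fold (log2 ratio of 2) above the highest of the other 5 WT libraries, on the log2(CPM + 1) scale. By this rule 8 of the 8 genes were specific, against 3.09% of the 5575 genes tested. The distance to the next mac population was unequal, from 5.03-fold for Fcrls to 315-fold for Sall1, which ranked 134th and 7th of the genes tested. The plot of levels by library shows that CMs were the next highest population for 6 of the 8.

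**Figure D1:**
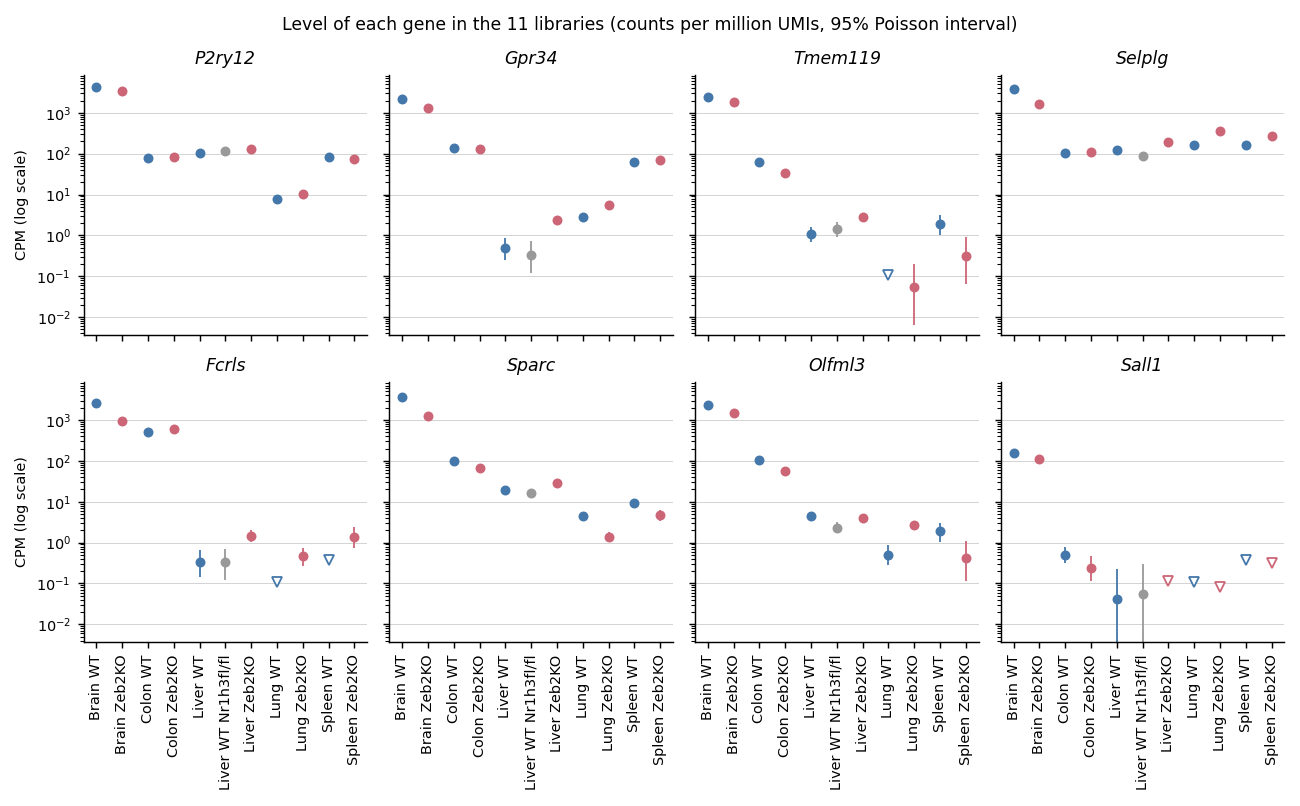
Level of each of the 8 genes in the 11 libraries, in CPM on a log axis, with blue points for WT, red for Zeb2KO and grey for WT Nr1h3fl/fl liver, bars for the 95% Poisson interval and open triangles for the limit of 3 counts where no UMI was found. WT microglia were the highest library for every gene, and Fcrls stood out by its level in CMs (513 and 613 CPM).

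P2ry12 encodes a receptor for ADP that guides microglial processes to injured cells, and lies on chr3:59216272-59262871 (GRCm38/mm10, minus strand, protein coding, in a region where Med12l lies on the other strand). It was at 4405 CPM (4368 to 4443) in WT microglia and at 7.62 to 115 CPM in the other WT libraries. The next highest were the KCs of Nr1h3fl/fl mice (115 CPM) and of Zeb2fl/fl mice (101 CPM), followed by SMs (84.1 CPM), CMs (79.6 CPM) and AMs (7.62 CPM). The 2 WT KC libraries thus lay next to each other, 0.19 apart on the log2 scale, and AMs lay well below all others. P2ry12 UMIs were found in 41.8% of WT KCs at a median of 5361 UMIs per cell and in 1.52% of the 66 B cells of the same library (1 UMI), whose median was lower, at 2446.5 UMIs. The 104 endothelial cells left out of that library held P2ry12 at 60.8 CPM, and those of the Zeb2KO library at 68.6 CPM. All 44 P2ry12 UMIs of the WT endothelial cells lay in cluster 8 (81 cells), where macrophage markers were close to the level of the other liver cells (log2 fold -0.48), and 0 in cluster 17 (23 cells, log2 fold -2.83), so KC RNA in these barcodes and endothelial P2ry12 cannot be told apart. In the spleen, B cells held P2ry12 at 6.53 CPM in WT and 11.4 CPM in Zeb2KO.

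Gpr34, on chrX:13632089-13640858 (plus strand, protein coding, with Cask on the other strand), encodes a G protein-coupled receptor of the same receptor group that responds to lysophosphatidylserine. It was at 2156 CPM (2130 to 2182) in WT microglia, at 136 CPM in CMs and at 62.0 CPM in SMs. AMs had 2.84 CPM, and KCs 0.497 CPM in Zeb2fl/fl and 0.327 CPM in Nr1h3fl/fl mice. The KC levels rest on 12 and 6 UMIs, and their intervals overlapped. The order of the other tissues therefore differed between these 2 receptors, with KCs near the top for P2ry12 and at the bottom for Gpr34. In spleen B cells Gpr34 was at 4.57 CPM in WT and 6.08 CPM in Zeb2KO, found in 1.10% of WT B cells at a median of 2080 UMIs against 13.5% of WT SMs at 2207 UMIs.

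Tmem119, a transmembrane protein widely used as a microglia marker, and Selplg, the P-selectin glycoprotein ligand 1 through which leukocytes bind selectins, are neighbours on the minus strand of chromosome 5, at chr5:113793729-113800516 and chr5:113818536-113832644, with 18019 bases between them. Tmem119 was at 2428 CPM (2401 to 2456) in WT microglia and at 62.0 CPM in CMs. It was at 1.88 CPM or below in SMs and in both KC libraries, and 0 UMIs were found in AMs, a limit of 0.109 CPM. Selplg was at 3756 CPM (3721 to 3790) in WT microglia and between 87.0 and 163 CPM in all other WT libraries. The neighbours thus had different patterns outside the brain, Tmem119 being near absent in 4 of the 5 libraries and Selplg present in all 5. SMs (163 CPM) and AMs (161 CPM) were indistinguishable for Selplg within counting error, and spleen B cells held it at 41.8 CPM in WT and 57.0 CPM in Zeb2KO. In spleen T cells Selplg was at 200 CPM (143 to 272) in WT and 261 CPM (175 to 375) in Zeb2KO, and in the 13 T cells of the WT colon at 376 CPM.

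Fcrls, on chr3:87250758-87263738 (minus strand), encodes an Fc receptor-like scavenger protein. It was at 2580 CPM (2551 to 2608) in WT microglia and at 513 CPM (506 to 519) in WT CMs, where 88.1% of cells had a UMI. In WT KCs it was at 0.331 CPM and 0.327 CPM, and no UMI was found in 6972 AMs or 3168 SMs. Fcrls was thus above 20 CPM in microglia and CMs and near or at 0 in the others, and its call as specific was lost when TMM factors replaced total UMIs and when an 8-fold distance (log2 ratio of 3) was asked. In WT CMs it varied by cell cluster from 293 to 949 CPM. The T cells of the WT colon library, 13 in number, held 102 CPM and its fibroblasts 89.9 CPM.

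Sparc, on chr11:55394500-55423183 (minus strand), encodes a secreted protein that binds collagen, and Olfml3, on chr3:103722222-103738001 (minus strand), a secreted glycoprotein of the olfactomedin family. Sparc was at 3702 CPM (3668 to 3736) in WT microglia, 102 CPM in CMs, 19.2 and 16.3 CPM in KCs, 9.53 CPM in SMs and 4.41 CPM in AMs. Olfml3 was at 2296 CPM (2270 to 2323) in WT microglia, 105 CPM in CMs, 4.55 and 2.34 CPM in KCs, 1.88 CPM in SMs and 0.510 CPM in AMs. Both genes thus kept the same order of tissues, with CMs well above the rest. Other cells of the same sorts expressed Sparc strongly: it was at 7988 CPM in the 131 fibroblasts left out of the WT colon library and at 1011 CPM in the 104 endothelial cells left out of the WT liver library. Olfml3 was at 195 CPM and Tmem119 at 479 CPM in those colonic fibroblasts, and the part of fibroblast RNA in the CM levels was not tested.

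Sall1, on chr8:89027235-89044162 (minus strand), encodes a zinc finger transcription factor that keeps microglia in their resting state. It was at 160 CPM (153 to 167) in WT microglia, where 47.5% of cells had a UMI. The 22 UMIs of WT CMs gave 0.508 CPM, and 10 of them lay in clusters led by smooth muscle and pericyte genes, without which, a choice made after seeing the data, the level was 0.279 CPM (0.144 to 0.487). Each KC library had 1 UMI, and AMs and SMs had none, which allows at most 0.109 and 0.376 CPM. Of the 8 genes Sall1 was the one with the fewest UMIs and the widest distance to other macs. The counts of other brain cell markers were small in the WT microglia library, at 1.70 CPM for neurons and 13.5 CPM for oligodendrocytes, and at 133 CPM for astrocytes, of which 131 CPM were Slc1a3.

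In Zeb2KO microglia all 8 genes were lower than in WT microglia, and all 8 were still above every library of the other tissues. The difference passed 2-fold for Selplg, Fcrls and Sparc, and stayed within 2-fold for P2ry12, Gpr34, Tmem119, Olfml3 and Sall1. Of the 5922 genes at 20 CPM or more in either brain library, 4.07% were lower past 2-fold and 4.27% higher. How many were lower by any amount was not counted. The median log2 ratio of Zeb2KO over WT was -0.70 over the 8 genes and -0.09 over all genes tested, and how far 2 microglia libraries of 1 genotype would differ is not known.

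P2ry12 was at 4405 CPM in WT and 3360 CPM (3332 to 3387) in Zeb2KO microglia, a log2 ratio of -0.39. Gpr34 was at 2156 CPM in WT and 1284 CPM (1267 to 1301) in Zeb2KO, a log2 ratio of -0.75. In both cases the Poisson intervals of the libraries lay apart. Among the surface proteins, Tmem119 was at 2428 CPM in WT and 1869 CPM (1849 to 1890) in Zeb2KO (log2 ratio -0.38), close to P2ry12 in its difference. Selplg was at 3756 CPM in WT and 1637 CPM (1618 to 1657) in Zeb2KO (log2 ratio -1.20), 2.29-fold lower. Fcrls was at 2580 CPM in WT and 932 CPM (918 to 947) in Zeb2KO (log2 ratio -1.47), 2.77-fold lower. Of the adjacent genes Tmem119 and Selplg, Selplg alone thus passed 2-fold.

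Of the secreted proteins, Sparc was at 3702 CPM in WT and 1235 CPM (1218 to 1252) in Zeb2KO microglia, a log2 ratio of -1.58. This was the largest difference among the 8. Olfml3 was at 2296 CPM in WT and 1462 CPM (1443 to 1480) in Zeb2KO, a log2 ratio of -0.65. The transcription factor Sall1 was at 160 CPM in WT and 110 CPM (105 to 115) in Zeb2KO, a log2 ratio of -0.54, with the least precise counts of the 8. As whole libraries Zeb2KO microglia still lay above other macs, with Sparc at 1235 CPM against 102 CPM in WT CMs. Fcrls came closest, at 932 CPM in Zeb2KO microglia against 613 CPM in Zeb2KO CMs, and by cluster it overlapped, since colon cluster 1 held Fcrls at 949 CPM in WT and 1084 CPM in Zeb2KO cells.

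**Figure D2:**
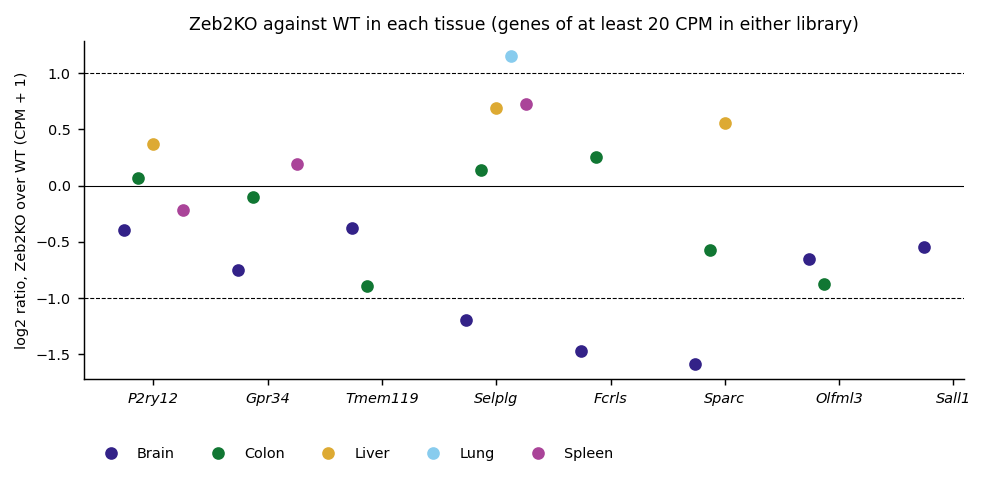
Log2 ratio of Zeb2KO over WT (CPM + 1) for each gene and tissue, shown where at least 1 library reached 20 CPM, with dashed lines at 2-fold. Each point is 1 pair of libraries. In brain all 8 points lie below 0, with Sparc at -1.58, and Selplg in lung (1.15) is the point above the upper line.

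All of the genes but Sall1 were still found in most Zeb2KO microglia, at a lower share of the UMIs. To compare libraries of unequal depth, each cell was thinned to 1500 UMIs, a depth that all cells of both brain libraries reached. Cells with a Sparc UMI then made up 98.6% of WT and 73.9% of Zeb2KO microglia, cells with an Fcrls UMI 92.7% and 67.1%, and cells with a Selplg UMI 98.4% and 86.5%. Without thinning the shares were 99.9% and 91.2% for Sparc, 98.6% and 91.8% for Fcrls, and 99.8% and 98.9% for Selplg. For P2ry12 the thinned shares were 98.3% and 96.2%, for Tmem119 94.8% and 89.6%, and for Gpr34 92.8% and 80.1%. For Olfml3 they were 93.9% and 83.8%, and for Sall1 21.5% and 15.3%. The share was lower in Zeb2KO for 8 of 8 genes at 1000, 1500 and 2000 UMIs per cell. How many of all genes had a lower share was not counted. A small mixed cluster led by Pf4, Ms4a7 and Mcpt8, genes of border-associated macrophages and basophils, held 6 WT and 10 Zeb2KO cells, 0.212% and 0.308% of the libraries. Its WT cells held P2ry12 at 1120 CPM (796 to 1531) and Sparc at 1350 CPM (992 to 1795), and its Zeb2KO cells held P2ry12 at 446 CPM (279 to 675) and Sparc at 122 CPM (44.6 to 265).

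Counted per cell at 1500 UMIs, WT microglia held a UMI of 7 of the 8 genes at the median and Zeb2KO microglia of 6. The share of cells with 7 or 8 of the genes was 78.6% in WT and 38.0% in Zeb2KO. The UMIs of the 8 genes summed to a median of 32 per WT cell (19 at the 10th and 46 at the 90th percentile) and 18 per Zeb2KO cell (8 and 29). The bar chart of genes per cell shows that the Zeb2KO distribution was shifted and wider, with cells without any of the 8 at 0.0617%. Cells without Fcrls made up 7.31% of WT and 33.0% of Zeb2KO microglia, cells without Sparc 1.52% and 26.5%, and cells without both 0.318% and 11.3%.

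**Figure D3:**
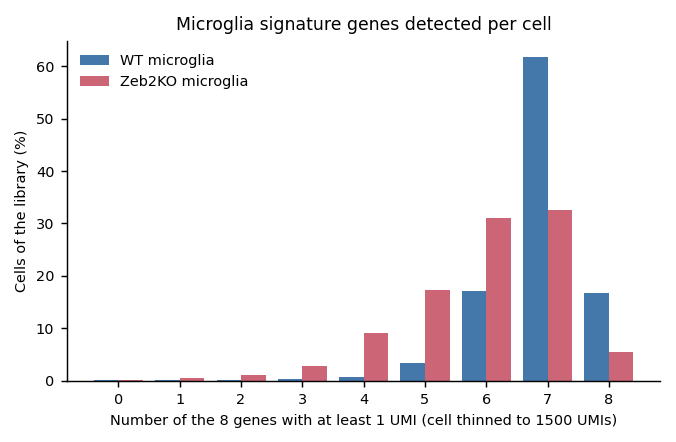
Share of cells (%) by the number of the 8 genes with at least 1 UMI after each cell was thinned to 1500 UMIs, with blue bars for WT and red bars for Zeb2KO microglia. WT cells peak at 7 genes, and Zeb2KO cells spread over lower numbers, with 38.0% at 7 or 8 against 78.6% in WT.

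Brain cells were clustered without the 8 genes and 25 other genes that mark resting microglia, and WT and Zeb2KO cells still fell apart. Clusters 0, 2 and 7 held 98.5% of WT and 0.339% of Zeb2KO cells, and clusters 1, 3, 4, 6 and 8 held 94.3% of Zeb2KO and 0.106% of WT cells. Over the clusters with at least 50 cells of a library, 3 for WT and 5 for Zeb2KO, Sparc ranged from 3190 to 4198 CPM in WT and from 856 to 1539 CPM in Zeb2KO. Fcrls ranged from 2300 to 2953 CPM in WT and from 709 to 1078 CPM in Zeb2KO. Gpr34 ranged from 1729 to 2491 CPM in WT and from 988 to 1550 CPM in Zeb2KO. For these 3 genes the WT and Zeb2KO clusters did not overlap, and for the other 5 genes they did. The share of all genes without overlap was not counted, so this is not a trait shown to be particular to the 3. Clusters of 1 library are not replicates, so these ranges describe the pair of libraries.

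A small WT cluster set most of this overlap. Cluster 7, 80 WT cells led by Lgals3 and Lpl, held P2ry12 at 1897 CPM (1770 to 2031), Tmem119 at 1132 CPM and Selplg at 1750 CPM. For P2ry12 and Tmem119 these levels lay below 4 of the 5 Zeb2KO clusters and for Selplg below 1 of them, the highest of which held 4312, 2206 and 2015 CPM. Without cluster 7, P2ry12 alone still overlapped, at 3889 CPM in WT cluster 2 against 4312 CPM in Zeb2KO cluster 3, while Sall1 in the same clusters was at 139 and 137 CPM, within counting error. Yet the same 80 cells held Sparc at 3190 CPM and Fcrls at 2333 CPM, above every Zeb2KO cluster. In cluster 6, 163 Zeb2KO cells led by Gpnmb and Spp1, P2ry12 was at 1607 CPM, Tmem119 at 956 CPM, Selplg at 828 CPM and Sall1 at 57.6 CPM, the lowest of the Zeb2KO clusters of this size for each. Sparc (856 CPM) was also lowest there, whereas Fcrls (805 CPM) was not.

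A cluster led by interferon-induced genes such as Ifit1 and Ifit3 held cells of both genotypes, 34 WT and 164 Zeb2KO. Within it Sparc was at 3512 CPM (3213 to 3833) in WT and 1187 CPM (1117 to 1261) in Zeb2KO cells, and Fcrls at 2351 CPM (2107 to 2615) and 709 CPM (655 to 766). Selplg was at 3652 CPM in WT and 1663 CPM in Zeb2KO cells. P2ry12 was at 3728 CPM (3419 to 4057) and 2964 CPM (2853 to 3079), and Tmem119 at 2302 CPM (2061 to 2564) and 1858 CPM (1770 to 1950). All 8 genes were lower in the Zeb2KO cells of this cluster, with the larger differences again at Sparc, Fcrls and Selplg. The share of all genes lower in these cells was not counted. Of the Zeb2KO cells, 11 sat in the WT cluster 2, which was led by haemoglobin transcripts: they held Sparc at 3518 CPM, Fcrls at 2672 CPM and Selplg at 3397 CPM, within the range of the WT clusters, and 0 of their barcodes were found in the WT library.

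**Figure D4:**
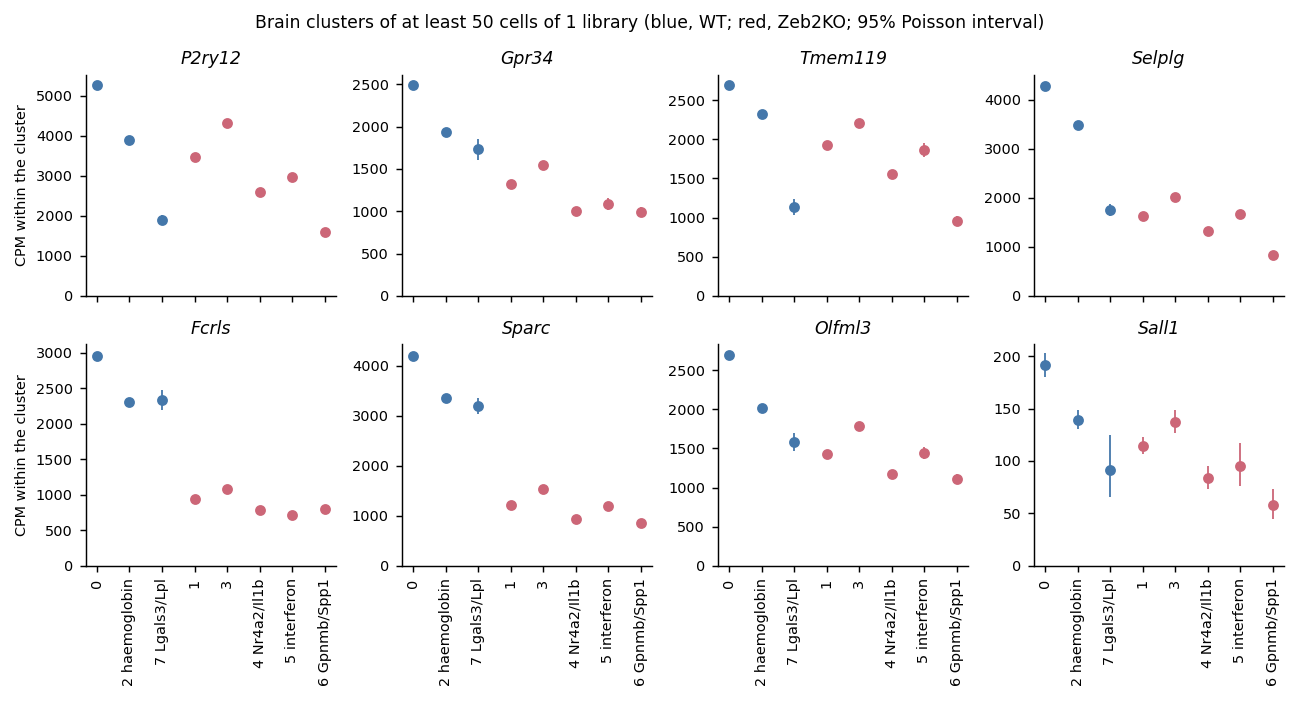
Level of each gene (CPM, linear axis from 0) in the brain clusters with at least 50 cells of a library, with blue points for WT cells in clusters 0, 2 and 7, red points for Zeb2KO cells in clusters 1, 3, 4, 5 and 6, and bars for the 95% Poisson interval. Fcrls, Sparc and Gpr34 are lower in every red than in every blue point, and P2ry12 and Tmem119 in cluster 7 lie below most red points.

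Other genes that mark resting microglia were also lower or within 2-fold. Of 25 such genes, 0 were higher and 6 lower past 2-fold, with a median log2 ratio of -0.46, and 15 of the 25 were specific to WT microglia by the same rule. Ecscr, a surface protein also found in endothelial cells, was at 439 CPM in WT and 21.9 CPM in Zeb2KO, and Adgrg1, an adhesion G protein-coupled receptor, at 275 and 15.7 CPM. Among the more abundant, the protease inhibitor Cst3 (66835 and 60386 CPM) and the lysosomal protease Lgmn (5657 and 4121 CPM) stayed within 2-fold. Among 14 genes of the TGF-beta pathway, 11 could be tested and 1, the integrin subunit Itgav, was lower past 2-fold (66.3 and 22.7 CPM), with 0 higher. Of 12 microglia transcription factors, 0 were higher and 1 lower, Cebpa (666 and 318 CPM). These lists were chosen with earlier results of these data known.

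Genes with roles like those of the 8 were mostly within 2-fold. None of 9 tested purine signalling genes passed 2-fold, and P2ry13, the ADP receptor most like P2ry12, was at 765 CPM in WT and 674 CPM in Zeb2KO microglia. Of 6 tested matrix and secreted factors 2 were lower past 2-fold, the metalloproteinase Adamts1 (307 and 21.3 CPM) and the protease inhibitor Timp2 (417 and 199 CPM), and 0 were higher. Of 5 tested selectin ligand and adhesion genes 0 passed 2-fold. Of 2 tested Fc receptor-like genes 1 was higher past 2-fold and 0 lower. Fcrla was at 0.243 CPM in WT and 245 CPM in Zeb2KO microglia, opposite in direction to Fcrls, and Fcrl1 at 42.8 and 37.8 CPM. Of 11 tested genes of activated microglia 7 were higher and 1 lower, with a median log2 ratio of 1.72. The secreted protein Spp1 was at 11.2 and 499 CPM and the chemokine Ccl4 at 2411 and 5823 CPM.

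In the other tissues the 8 genes did not share a direction. In CMs 7 of the 8 reached 20 CPM, and none passed 2-fold, against 1.56% of 5140 genes past 2-fold in either direction. Tmem119 was at 62.0 CPM (59.7 to 64.4) in WT and 33.0 CPM (31.2 to 35.0) in Zeb2KO CMs, a log2 ratio of -0.89. Olfml3 was at 105 CPM (102 to 108) in WT and 56.8 CPM (54.4 to 59.3) in Zeb2KO, a log2 ratio of -0.87. Sparc was at 102 CPM (98.5 to 105) in WT and 67.7 CPM (65.1 to 70.5) in Zeb2KO, a log2 ratio of -0.58. These 3 genes were lower in Zeb2KO CMs beyond counting error. Fcrls was on the other side, at 513 CPM (506 to 519) in WT and 613 CPM (605 to 621) in Zeb2KO CMs, a log2 ratio of 0.26. P2ry12 (79.6 and 83.2 CPM), Gpr34 (136 and 127 CPM) and Selplg (102 and 113 CPM) differed by at most 0.14 on the log2 scale.

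Within the colon, WT and Zeb2KO cells shared 10 clusters with at least 50 cells of each library, which held 75.7% of the Zeb2KO CMs. Ms4a1, a gene by which the study recognised Zeb2-/- cells, was at 5.53 CPM in the Zeb2KO cells of these clusters and at 119 CPM in the other Zeb2KO CMs, so the values within shared clusters come mostly from cells low in this marker, and which of them had kept a Zeb2 allele was not tested. Tmem119 was lower in Zeb2KO in 10 of the 10 clusters, with Poisson intervals apart in 7, and so was Sparc, again with intervals apart in 7. Olfml3 was lower in 9 of 10, with intervals apart in 4. Fcrls was higher in 8 of 10, with intervals apart in 7 of these, and lower in 2, with intervals apart in 1. Selplg was lower in 5 and higher in 5, with intervals apart in 0 and a median log2 ratio of -0.08. In cluster 0, where Olfml3 was highest in WT (230 CPM) and was itself among the leading genes, Fcrls was at 308 CPM in WT and 633 CPM in Zeb2KO, Sparc at 72.2 and 31.4 CPM, and Olfml3 at 230 and 187 CPM. The exception for Fcrls with intervals apart was cluster 5, led by Ear2 and Ccr2, at 328 CPM in WT and 227 CPM in Zeb2KO. Cells of 1 library are not replicates, so these counts describe the pair of libraries only.

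**Figure D5:**
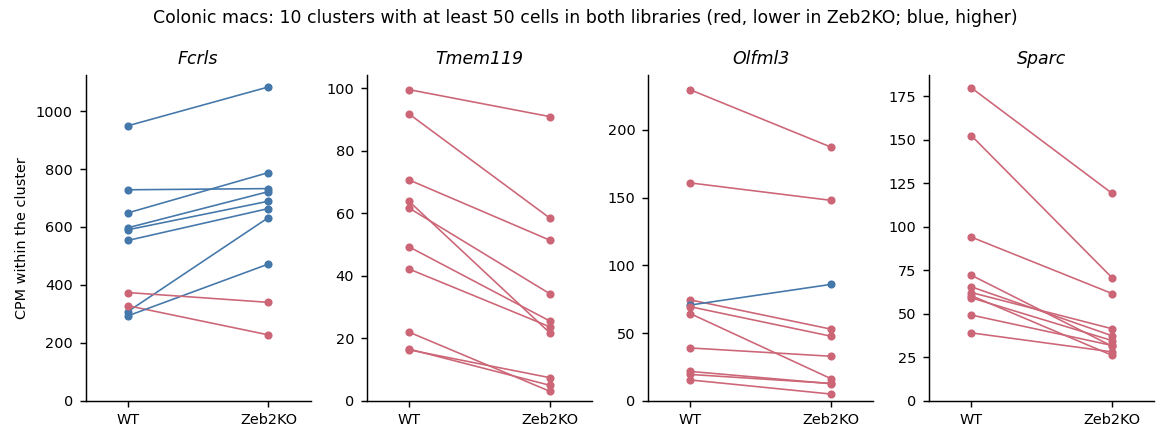
Level (CPM, linear axis from 0) of Fcrls, Tmem119, Olfml3 and Sparc in WT and Zeb2KO cells of the 10 colon clusters with at least 50 cells in both libraries, each line being 1 cluster, red where lower in Zeb2KO and blue where higher. Tmem119 and Sparc lines all slope down, and 8 of 10 Fcrls lines slope up.

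Cluster 3 of the colon, led by Hp and Mmp8 with Ms4a1 among its top genes, held 19 WT and 722 Zeb2KO cells and had low levels of most of the genes: Fcrls at 148 CPM, Tmem119 at 18.9 CPM and Olfml3 at 13.1 CPM in its Zeb2KO cells. Selplg was highest there, at 216 CPM. Fibroblast marker RNA and Sparc were both lower in the Zeb2KO than in the WT CM library. The part of fibroblast RNA in the Sparc difference was not tested. The fibroblast marker list summed to 162 CPM in WT and 121 CPM in Zeb2KO CMs, and Sparc itself was at 7988 CPM in WT and 5450 CPM in Zeb2KO fibroblasts. Per UMI of the fibroblast list, Sparc gave 0.40 UMIs in WT and 0.341 in Zeb2KO fibroblasts, and 0.625 and 0.561 in the kept CMs. Without clusters led by smooth muscle and pericyte genes, a choice made after seeing the data, Sparc was at 80.5 CPM in WT and 49.9 CPM in Zeb2KO CMs, a log2 ratio of -0.68.

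In KCs, P2ry12, Selplg and Sparc reached 20 CPM and 0 of the 3 passed 2-fold, against 4.69% of 5394 genes in either direction. P2ry12 was at 101 CPM in the Zeb2fl/fl WT, 115 CPM in the Nr1h3fl/fl WT and 131 CPM in the Zeb2KO library. Within the 7 shared clusters, which held 23.0% of the Zeb2KO KCs, P2ry12 was lower in Zeb2KO in 5, with intervals apart in 0 of them, and higher in 2, with intervals apart in 1. Siglecf, a gene by which the study recognised Zeb2-/- KCs, was at 27.6 CPM in the Zeb2KO cells of these clusters. In the other Zeb2KO KCs it was at 202 CPM. Selplg was at 123 CPM in the Zeb2fl/fl WT, 87.0 CPM in the Nr1h3fl/fl WT and 198 CPM in the Zeb2KO library. The Zeb2KO library was the highest of the 3 for both P2ry12 and Selplg. Against the Nr1h3fl/fl WT library Selplg passed 2-fold in Zeb2KO KCs (log2 ratio 1.18), where 4.24% of 5748 genes were higher past 2-fold. The 2 WT libraries themselves differed by -0.49 for Selplg, with 1.37% of 5546 genes past 2-fold between them. Cluster 16, led by Alox15 and Prg4 and kept here, held 69 Zeb2fl/fl WT, 47 Zeb2KO and 1 Nr1h3fl/fl WT cells. Over the Zeb2fl/fl WT clusters with at least 50 cells, Selplg reached 629 CPM. The part of cluster 16 in these library levels was not tested. The Zeb2KO cells in cluster 2, 1869 cells led by Siglecf and Il1r2 and absent from both WT libraries, held Selplg at 261 CPM (252 to 270).

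Sparc in KCs was at 19.2 CPM in the Zeb2fl/fl WT, 16.3 CPM in the Nr1h3fl/fl WT and 28.6 CPM in the Zeb2KO library, a log2 ratio of 0.55. The level of Sparc in endothelial cells was 1011 CPM in WT and 959 CPM in Zeb2KO, and those left out at clustering numbered 104 and 333. With clusters of other cell types kept, the ratio was 1.17, past 2-fold. Cluster 11, kept as KCs though led by the endothelial genes Adgrf5, Ptprb and Flt1, held Sparc at 162 CPM in WT and 208 CPM in Zeb2KO. Without it, a choice made after seeing the data, the ratio was 0.83. How far endothelial RNA set the Sparc level of KCs was not tested.

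In AMs Selplg alone reached 20 CPM. It was at 161 CPM (157 to 166) in WT and 360 CPM (354 to 366) in Zeb2KO, a log2 ratio of 1.15, where 4.35% of 5811 genes were higher past 2-fold. The median gene of this pair lay at -0.31 by total UMIs and at -0.04 with TMM factors, and Selplg at 1.42 with TMM factors. A Selplg UMI was found in 44.4% of WT and 75.4% of Zeb2KO AMs, or 21.2% and 37.7% after thinning to 1500 UMIs. Within the 4 shared clusters, which held 6.64% of the Zeb2KO AMs, Selplg was higher in Zeb2KO in 3 and lower in 1, with log2 ratios from -0.06 to 0.93, none past 2-fold, and intervals apart in 1. Epcam, a gene by which the study recognised Zeb2-/- AMs, was at 131 CPM in the Zeb2KO cells of these clusters. In the other Zeb2KO AMs it was at 362 CPM. The clusters 1 (2743 cells, led by Krt18 and Krt8) and 6 (450 cells, led by Krt6b and Inhba), made of Zeb2KO cells alone, held Selplg at 423 and 468 CPM. Listed neutrophil markers summed to 22.9 CPM in WT and 23658 CPM in Zeb2KO AMs. Nearly all of the Zeb2KO sum was S100a8 (14255 CPM) and S100a9 (9403 CPM), both among the top genes of cluster 1. Ly6g was at 0.324 CPM in Zeb2KO AMs. The part of neutrophil RNA in the Selplg level was not tested. In cluster 9, 195 Zeb2KO cells led by C1qa and MHC class II genes, Gpr34 was at 50.7 CPM and Olfml3 at 52.0 CPM, against 2.84 and 0.510 CPM in all WT AMs, and all 17 Fcrls UMIs of the Zeb2KO lung library were in these cells.

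In SMs P2ry12, Gpr34 and Selplg reached 20 CPM and 0 passed 2-fold, against 3.26% of 6165 genes in either direction. P2ry12 was at 84.1 CPM (77.9 to 90.7) in WT and 72.2 CPM (66.9 to 77.8) in Zeb2KO, a log2 ratio of -0.22 with a counting interval of -0.38 to -0.06. Gpr34 was at 62.0 CPM (56.7 to 67.8) and 71.1 CPM (65.8 to 76.7), a log2 ratio of 0.19 with a counting interval of 0.03 to 0.37. Within the 5 shared clusters, which held 23.7% of the Zeb2KO SMs, Gpr34 was lower in 2 and higher in 3, with intervals apart in 0 and a median log2 ratio of 0.00. Siglecf, a gene by which the study recognised Zeb2-/- SMs, was at 4.54 CPM in the Zeb2KO cells of these clusters. In the other Zeb2KO SMs it was at 17.7 CPM. Epcam, which the study also used for SMs, was at 0.567 CPM (1 UMI) in the Zeb2KO cells of the shared clusters and 3.38 CPM in the others. Ms4a1 was at 184 CPM in the shared clusters and 174 CPM in the others. It is also a B cell gene, and WT SMs of the shared clusters held it at 58.0 CPM. The part of B cell RNA in the Ms4a1 levels was not tested. Selplg was at 163 CPM (155 to 173) in WT and 270 CPM (260 to 281) in Zeb2KO, a log2 ratio of 0.72, and was higher in Zeb2KO in 5 of 5 shared clusters, with intervals apart in 1. One of the 5, cluster 6 (195 WT and 128 Zeb2KO cells), was kept though led by B cell genes such as Fcer2a and Pax5, and without it, a choice made after seeing the data, the Selplg ratio was 0.73. Fcrls had no UMI in 3168 WT SMs, which allows 0.376 CPM, and 13 UMIs in Zeb2KO SMs. Of these 13, 12 lay in a cluster of 13 cells led by F13a1 and Lyve1. In spleen, 825 WT and 534 Zeb2KO cells lay under 1500 UMIs and were left out of thinned shares.

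The summed counts of the 5 pairs, with tissue as a block, gave the test of a shift shared by all tissues (edgeR quasi-likelihood test, Benjamini-Hochberg adjustment). None of the 14097 genes tested passed an adjusted p of 0.05 (0%), 1592 had an unadjusted p under 0.05, and DESeq2 with the same design called 353. Of the 8 genes, Sparc had the smallest p. Its log2 fold change was -0.78 ± 0.31 (SE derived from the F statistic of the fit, edgeR adjusted p 0.423), and it was lower in 4 of 5 tissues. Sall1 passed the filter on low counts through the brain pair, with 0 or 1 UMI in each liver, lung and spleen library, so its fit does not bear on a shift across the 5 tissues and is not given. Fcrls had 0 UMIs in WT AMs and WT SMs and 8 in WT KCs. Tmem119 had 0 UMIs in WT and 2 in Zeb2KO AMs, and 15 in WT and 3 in Zeb2KO SMs. Olfml3 had 14 UMIs in WT AMs, and 15 in WT and 4 in Zeb2KO SMs. Gpr34 had 12 UMIs in WT KCs. The fits of Fcrls, Tmem119, Olfml3 and Gpr34 likewise do not bear on a shift across the 5 tissues and are not given. For P2ry12 and Selplg the adjusted p was 0.836 and 0.696 by edgeR. Their log2 fold changes were 0.11 and 0.38, and neither these genes nor Sparc were called by DESeq2. These values rested on single pairs. P2ry12 was at 0.20 without the brain pair and -0.04 without the lung pair. Selplg was at 0.73 without the brain pair and 0.10 without the lung pair. No shift of Sparc or of these genes common to the 5 tissues was thus detectable at this number of pairs.

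The pattern over the 11 libraries was compared with that of 8041 genes of at least 20 CPM in some library, by Pearson's r of log2(CPM + 1), as a description only, since all points share the same brain libraries at the top. Each of the 8 genes was ranked against genes other than the 8. The closest to Sall1 were Tgfa (0.999) and Slc2a5 (0.998), to Tmem119 Ak1 (0.990) and Ssbp2 (0.988), and to Olfml3 Bin1 (0.986) and Tln2 (0.985). Those of P2ry12 were Ifngr2 (0.987) and Srgap2 (0.987), of Gpr34 Mef2c (0.980) and Rhob (0.975), and of Sparc Fscn1 (0.983) and Ldhb (0.979). Fcrls, the gene shared with CMs, was closest to Hspb1 (0.991) and Hsp90aa1 (0.990), which encode heat shock proteins, and Selplg to Pecr (0.982) and 4933434E20Rik (0.975). Among the 8 genes themselves Tmem119 and Olfml3 were the most alike (0.990).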

How the data were processed

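Single-cell RNA sequencing of sorted macs was analysed in 11 libraries. The authors processed the reads with Cell Ranger, aligned them with STAR to mm10 and deposited the raw UMI counts, the unit used, for 27998 genes in each barcode. Whether intronic reads or strand bore on genes that overlap another gene was not given in the sources used here. The Nr1h3-deficient KC library was not analysed here.

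Barcodes whose UMIs, genes or mitochondrial share lay over 3 median absolute deviations off were removed, as in the methods of the study. Cells were clustered per tissue (scanpy 1.11.5, 2000 variable genes, 30 components, 15 neighbours, Leiden resolution 0.8). The variable genes were chosen without the 8 genes and 25 other resting microglia genes. Mitochondrial, ribosomal protein, immunoglobulin and some sex-linked genes were also barred. Clusters past set thresholds for markers of other cell types were left out: 0% of brain, 4.28 and 4.84% of colon, 4.67 to 12.1% of liver, 0.300 and 0.829% of lung, and 23.5 and 16.3% of spleen cells. Some clusters led by genes of other cells were kept, as they did not meet these thresholds or no marker list was set for them: colon 17 (smooth muscle) and 23 (pericytes), liver 11 (endothelial), spleen 6 (B cells), brain 9 (border-associated macrophages and basophils) and lung 18 (monocytes). Liver 16, led by Alox15 and Prg4, with macrophage markers lower than in the other liver cells (log2 fold -0.97), was kept as well. Doublets were removed in an alternative only, by score. Proliferating cells were kept. Names of cell types rest on these rebuilt clusters.

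UMIs were summed per library, scaled to CPM and compared as log2(CPM + 1), which understates differences of low genes. A difference was called at 2-fold among genes at 20 CPM or more in the higher library, with no test. Intervals are exact Poisson intervals, and a count of 0 allows 3 counts. At 20 CPM or more (45 of 88 levels) the half-width of the interval was at most 8.91%. Thinned shares are expected shares of cells with a UMI in a draw of 1500 UMIs. The 5 pairs were tested with edgeR 4.0.16 (TMM, tissue as a block, R 4.3.3), with DESeq2 1.42.0 as an alternative. The labels do not say how many mice made a library, and p-values measure the spread between tissues. On simulated data with 14096 genes, the edgeR design recovered 36 of 100 genes of 2-fold and 80 of 100 of 4-fold, with 6 false calls. Tissue is the block, since both libraries of a pair come from the same tissue and littermates.

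Gene positions came from GENCODE M21 (GRCm38/mm10). Zeb2 and genes by which the study recognised Zeb2-/- macs were named for that reason. Other named genes were the 8 genes, the 3 most abundant and the 2 most different genes of each list, and the 2 genes most like each of the 8. A gene that this rule would name is not reported here. The genes and lists were chosen with earlier results of these data known. Alternatives were TMM factors, other pseudocounts, CPM floors and thresholds, all barcodes, other cell types kept, high doublet scores or proliferating clusters removed, each pair left out and other thinning depths. Chosen after seeing the data, the kept smooth muscle, pericyte, liver endothelial and spleen B cell clusters named above were left out in further alternatives.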

Additional observations from a re-analysis of the deposited data

Results flagged for a closer look

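Several genes differed in opposite directions between microglia and another mac population, with 1 pair of libraries in each tissue. These differences between tissues were not tested, and by the study's account the Zeb2KO libraries of every tissue but the brain also hold macs that kept a Zeb2 allele, so the ratios are not of like populations. Selplg was lower in Zeb2KO microglia (log2 ratio -1.20) and higher in Zeb2KO in all 4 other tissues, by 0.14 in colon, 0.69 in liver, 1.15 in lung and 0.72 in spleen, though in the colon it was lower in 5 and higher in 5 of the 10 shared clusters. Fcrls was lower in Zeb2KO microglia (-1.47) and higher in Zeb2KO CMs (0.26) as a whole library. Yet the Zeb2KO cells of colon cluster 3, with Ms4a1 among its top genes, held Fcrls at 148 CPM, against 513 CPM in WT CMs. The higher level is thus not shown for Zeb2-/- CMs. Sparc was lower in Zeb2KO microglia (-1.58) and higher in Zeb2KO KCs (0.55), where endothelial cells in the sort carry Sparc as well. P2ry12 was lower in Zeb2KO microglia (-0.39) and higher in Zeb2KO KCs (0.37), though it was lower in 5 of the 7 shared liver clusters, the ratio over the Nr1h3fl/fl WT library was 0.18 and the 2 WT KC libraries themselves differed by 0.19. Gpr34 was lower in Zeb2KO microglia (-0.75) and higher in Zeb2KO SMs (0.19), where 2 of the 5 shared clusters were lower and 3 higher. Genes that mark Zeb2-/- macs in the study were lower in Zeb2KO cells of shared clusters than in the other Zeb2KO cells. These were Ms4a1 in colon and Siglecf in liver and spleen. Ms4a1 in spleen was not lower, but it is also a B cell gene and was at 58.0 CPM in WT SMs of the shared clusters.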

How the results depend on the processing

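Selplg, Fcrls and Sparc were the 3 genes past 2-fold in Zeb2KO microglia under each alternative scaling, pseudocount, CPM floor and choice of cells that was run. The number specific to WT microglia was 8 in each alternative except 7 with TMM factors and at an 8-fold distance, where Fcrls was lost. Of 101 alternative values of 22 log2 ratios, 89 lay within counting error, 12 moved beyond it and 0 changed sign, and 2 crossed 2-fold, Sparc in liver with all deposited barcodes (1.12) and with other cell types kept (1.17). All 32 thinned shares at 1000 and 2000 UMIs moved, with each gene still lower in Zeb2KO. The edgeR count of 0 genes with a shift common to the tissues was 0 with DESeq2 size factors and with all barcodes, 353 with DESeq2 (238 higher, 115 lower), 3 without a filter on low counts, and between 0 and 1 with each pair left out, the 1 being without the spleen pair. Without the tissue block, with no pairing, it was 0. The cause of the gap between edgeR and DESeq2 was not tested. With 1 library per tissue and genotype, depth limits only levels under 20 CPM, while replicate error within a tissue is unknown.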
